A study of Homo sapiens with 6 samples.

Results

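Aldehyde dehydrogenases are enzymes that oxidise aldehydes to carboxylic acids with NAD or NADP. The 10 genes described here are ALDH1A1, ALDH1A2, ALDH1A3, ALDH1B1, ALDH1L1, ALDH1L2, ALDH2, ALDH3A1, ALDH3A2 and ALDH3B1. They were chosen by symbol, and every probe set annotated to exactly 1 of them was taken, which gave 20 of the 54613 non-control probe sets on the array.

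Transcript levels came from 6 Affymetrix HG-U133 Plus arrays of SKOV3.ip1, a derivative of the human ovarian cancer line SKOV3. S116D cells (3 arrays) carried a stably transfected vector with a phosphomimetic PEA-15, in which aspartic acid replaced serine, and S116A cells (3 arrays) a vector with a nonphosphorylatable PEA-15, in which alanine replaced serine. PEA-15 is a small adaptor protein that binds ERK and FADD, and phosphorylation of its serines sets which partner it binds. The labels of the S116D line do not agree on the substituted residues: the titles name 1 serine, the characteristics list a further one, and the treatment description gives yet another position. Whether each line is 1 clone or a pool is not given in the sources used here, and no untransfected or empty-vector array was analysed. Whether the 3 arrays of a line stem from separate cultures is not stated, so the p-values rest on array-to-array spread that may be purely technical.

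Human cells hold 19 genes of this family, with differing substrates and compartments. The ALDH1A enzymes of the cytosol make retinoic acid from retinaldehyde, ALDH2 and ALDH1B1 of the mitochondrion handle acetaldehyde, the ALDH1L enzymes act on formyltetrahydrofolate, and the ALDH3 enzymes act on aromatic and long-chain aldehydes. In ovarian and other carcinomas, high ALDH activity in flow cytometry is used to sort cells with tumour-initiating capacity, with ALDH1A1 and ALDH1A3 as frequently named sources.

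Array medians ranged from 7.86 to 7.89 on the log2 scale and lower quartiles from 6.62 to 6.65. Correlations over all probe sets were 0.995 or more within a line and 0.990 or less between lines. A second principal component, with 20.3% of the variance, set S116D 1, S116A 1 and S116A 2 apart from S116D 2, S116D 3 and S116A 3, a grouping that matches no label. Where these 2 array sets serve as a block below, the block is drawn from the tested values themselves. The p-values with it can therefore be too small. The log2 ratio of 3′ to 5′ control probe sets, a sign of RNA integrity, was 0.70 to 0.79 in S116D and 0.65 to 0.78 in S116A for GAPDH. For ACTB it was larger, at 2.27 to 2.47 in S116D and 2.33 to 2.43 in S116A, with the lines overlapping on both. The brighter probe set of PEA15 differed between the lines by -0.06 (95% interval -0.26 to 0.14) and the dimmer one by -0.19 (-0.36 to -0.02, limma adjusted p = 0.20, lines not overlapping), and it is not known whether they read the vector's transcript. Of 10 epithelial and ovarian carcinoma markers, 8 lay above the upper quartile of every array on average, among them KRT8, KRT18, ERBB2 and PAX8, while MUC16 and MSLN lay below the median. Of these 10, KRT7, KRT8, KRT18, KRT19 and EPCAM were lower in S116D, at limma adjusted p of 0.0196 or below. Of all 19775 genes, each on its probe set with the highest mean signal, 4.82% were lower at a limma adjusted p under 0.05. The call of KRT8 ended without S116A 1, S116D 2 or S116D 3, and that of EPCAM without S116A 1, S116A 2, S116D 2 or S116D 3 (adjusted p 0.0586 to 0.0868).

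Of the 20 probe sets, 3 were lower and 0 higher in S116D at an adjusted p under 0.05, with limma's moderated test over all probe sets and Benjamini-Hochberg adjustment. These 3, called lower in what follows, belonged to ALDH1A3 (both of its probe sets) and ALDH3A1. Over the whole array 8.55% of probe sets were called, 4.19% lower and 4.36% higher. The members' share of 15.0% rests on 3 probe sets of 2 genes and is not read as particular to the family. The lines did not overlap on 5 of the 20 probe sets, against 24.0% of all probe sets. The median difference, S116D minus S116A on the log2 scale, was -0.08 over the 20 probe sets and 0.00 over all probe sets. In RNA of whole cultures, fewer cells with a transcript and less transcript per cell cannot be told apart.

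**Figure D1:**
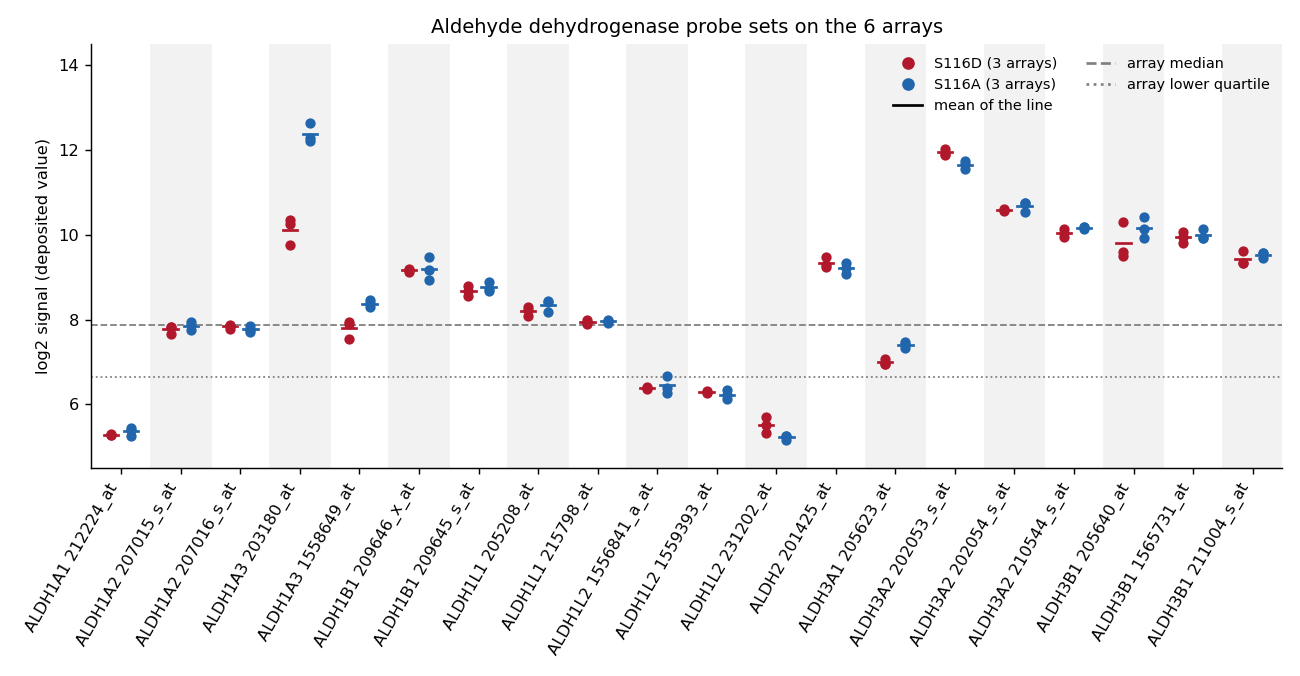
The vertical axis gives the deposited log2 signal and the horizontal axis the 20 probe sets; each point is 1 array, S116D (red) left of S116A (blue), with a short line at the mean of 3, and the grey lines mark the array median and lower quartile. Both ALDH1A3 probe sets and ALDH3A1 are lower on every S116D array, whereas most other pairs of groups overlap.

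ALDH1A3 differed most. It encodes a retinaldehyde dehydrogenase that supplies retinoic acid in the developing eye and nasal region and is a common source of ALDH activity in carcinoma cells. On its brighter probe set, 203180_at, it read 9.75, 10.25 and 10.35 on the S116D arrays, against 12.63, 12.27 and 12.20 on the S116A arrays. All S116D values lay well below all S116A values, and S116D 1 was the lowest. The means were 10.12 ± 0.32 in S116D and 12.37 ± 0.23 in S116A (SD, n = 3 each), a log2 difference of -2.25 ± 0.17 (SE), or 4.76-fold lower, with a limma adjusted p of 1.8e-04. Among the 19775 genes represented by their brightest probe set, it ranked at place 24 from the lowest difference.

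The second ALDH1A3 probe set, 1558649_at, was dimmer and moved the same way by less. It read 7.55, 7.90 and 7.94 in S116D, against 8.39, 8.45 and 8.29 in S116A. Again no S116D array reached the lowest S116A array. The difference was -0.58 (95% interval -0.83 to -0.33), with a limma adjusted p of 0.0141. Its interval and that of the brighter probe set (-2.64 to -1.86) did not overlap. The value of the gene therefore depends on the probe set: on the median of both, ALDH1A3 was 2.67-fold lower (-1.42, limma adjusted p = 4.1e-04). The dimmer probe set lost its call without S116A 1 (adjusted p = 0.0565) or S116A 2 (0.0619), while the brighter one was called under all 13 alternatives run on probe sets, at differences from -2.37 to -2.07. Within the set of S116D 1, S116A 1 and S116A 2 the brighter probe set differed by -2.70, and within the other set of 3 arrays by -1.90.

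The bases before the annotated start of ALDH1A3 are shown because this gene carries the main difference, beside those of ALDH1A1, the other family member named most in ALDH-based sorting. Both are RefSeq sequences of build GRCh38.p14, 250 bases long and written 5′ to 3′ on the strand of the gene. ALDH1A3 lies on the plus strand at chr15:100879581-100879830 and ALDH1A1 on the minus strand at chr9:72953054-72953303. Capitals mark matches on either strand to the SP1 box GGGCGG, the AHR core GCGTG, the box CCAAT, the box TATAAA, the retinoic acid receptor half-site AGGTCA or the AP-1 site TGACTCA.
ALDH1A3: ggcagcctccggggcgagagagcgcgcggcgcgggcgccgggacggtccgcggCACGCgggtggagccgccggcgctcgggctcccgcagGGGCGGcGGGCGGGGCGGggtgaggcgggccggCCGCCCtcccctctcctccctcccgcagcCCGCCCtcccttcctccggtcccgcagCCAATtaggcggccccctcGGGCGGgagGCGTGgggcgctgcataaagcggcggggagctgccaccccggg
ALDH1A1: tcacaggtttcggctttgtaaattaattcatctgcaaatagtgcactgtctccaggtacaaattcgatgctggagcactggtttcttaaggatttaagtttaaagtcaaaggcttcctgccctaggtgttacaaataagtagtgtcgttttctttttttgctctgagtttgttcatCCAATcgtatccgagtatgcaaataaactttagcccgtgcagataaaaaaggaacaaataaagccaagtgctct
The ALDH1A3 window held 82.4% G and C and 38 CpG dinucleotides, a higher G and C content than 98.6% of the 35116 windows of this length in the table. It held 6 GGGCGG matches, 2 of which share a base, 2 GCGTG matches and 1 CCAAT match. The ALDH1A1 window held 38.4% G and C, 6 CpG dinucleotides and 1 CCAAT match. Of all windows, 42.6% hold GGGCGG, 32.2% GCGTG, 32.0% CCAAT, 10.7% TATAAA, 12.1% AGGTCA and 4.20% TGACTCA. These letters are a description of the windows, and binding was not measured. The table held 11 such windows for 7 of the 10 genes.

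The other retinaldehyde dehydrogenases gave no call. ALDH1A1 read 5.31, 5.27 and 5.27 in S116D, against 5.39, 5.25 and 5.45 in S116A. All 6 values were under every array's lower quartile, and the lines overlapped. The difference was -0.08 (95% interval -0.21 to 0.06, limma adjusted p = 0.58). ALDH1A2, which makes retinoic acid in early embryos, lay near the array median on both probe sets, at 7.66 to 7.88 in S116D and 7.70 to 7.95 in S116A. Its probe sets differed by -0.09 and 0.07, in opposite directions, at limma adjusted p of 0.67 and 0.71. The intervals of ALDH1A1 and ALDH1A2 lay between -0.27 and 0.22 and did not reach those of ALDH1A3.

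The mitochondrial acetaldehyde enzymes also gave no call. ALDH2, the main enzyme of acetaldehyde clearance, read 9.47, 9.28 and 9.24 in S116D, against 9.34, 9.22 and 9.07 in S116A. The lines overlapped, and the difference was 0.12 (95% interval -0.11 to 0.35, limma adjusted p = 0.62). ALDH1B1, a related mitochondrial enzyme, differed by -0.03 on its brighter probe set and by -0.08 on the other, at limma adjusted p of 0.95 and 0.76. On the brighter one, of a type that can share sequence with other transcripts, S116D ranged from 9.12 to 9.20 and S116A from 8.94 to 9.48.

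The folate enzymes ALDH1L1 (cytosolic) and ALDH1L2 (mitochondrial), which oxidise formyltetrahydrofolate, showed no called difference. ALDH1L1 differed by -0.14 (95% interval -0.36 to 0.07) on its brighter probe set and by -0.01 on the other. All 3 ALDH1L2 probe sets lay below the lower quartile on average. One of them, 231202_at, read 5.52, 5.32 and 5.71 in S116D, against 5.26, 5.25 and 5.16 in S116A. These groups did not overlap, but the difference of 0.30 did not pass (limma adjusted p = 0.0907). It passed without S116D 2 (0.39, adjusted p = 0.0252). The other ALDH1L2 probe sets differed by -0.07 and 0.06.

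ALDH3A1 was the second gene called lower. It encodes a dehydrogenase of aromatic and medium-chain aldehydes, abundant in the cornea and inducible through the aryl hydrocarbon receptor AHR in rat liver. Its single probe set, 205623_at, read 6.95, 6.95 and 7.08 in S116D, against 7.48, 7.42 and 7.34 in S116A. The lines did not overlap, and all 6 values lay below the array median. The difference was -0.42 ± 0.07 (SE), 1.34-fold lower, with a limma adjusted p of 0.0062. It was called under all 13 alternatives that gave a value, at differences from -0.46 to -0.39. At so low a signal the fold is not exact, since detection above background could not be judged.

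ALDH3A2, the microsomal fatty aldehyde dehydrogenase whose loss causes Sjögren-Larsson syndrome, was split between probe sets. The brightest, 202053_s_at, read 11.89, 12.03 and 11.92 in S116D, against 11.68, 11.74 and 11.55 in S116A. These did not overlap, but the difference of 0.29 (95% interval 0.10 to 0.48) did not pass (limma adjusted p = 0.0692). It passed with eBayes without trend (adjusted p = 0.0497), with array weights (0.0425) and with a block for the 2 array sets (0.0202). The other probe sets differed by -0.09 and -0.12, at limma adjusted p of 0.71 and 0.51, so the median of the 3 differed by -0.09.

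ALDH3B1, a membrane-bound enzyme of lipid-derived aldehydes, had the widest spread. On 205640_at it read 10.31, 9.50 and 9.60 in S116D, against 10.43, 10.13 and 9.91 in S116A. The array S116D 1 stood above the other S116D arrays and within the S116A range. The difference was -0.35 (95% interval -0.84 to 0.14, limma adjusted p = 0.46), and without S116D 1 it was -0.60 with an adjusted p of 0.0412. The 2 sets of arrays moved with this value: the difference was 0.03 within the set that holds S116D 1, -0.36 within the other, and -0.16 with the sets as a block. The other ALDH3B1 probe sets differed by -0.05 and -0.09. Of the 17 probe sets that did not pass, 15 had a 95% interval within 0.5 of 0 on the log2 scale, and 2 had an unadjusted p under 0.05.

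**Figure D2:**
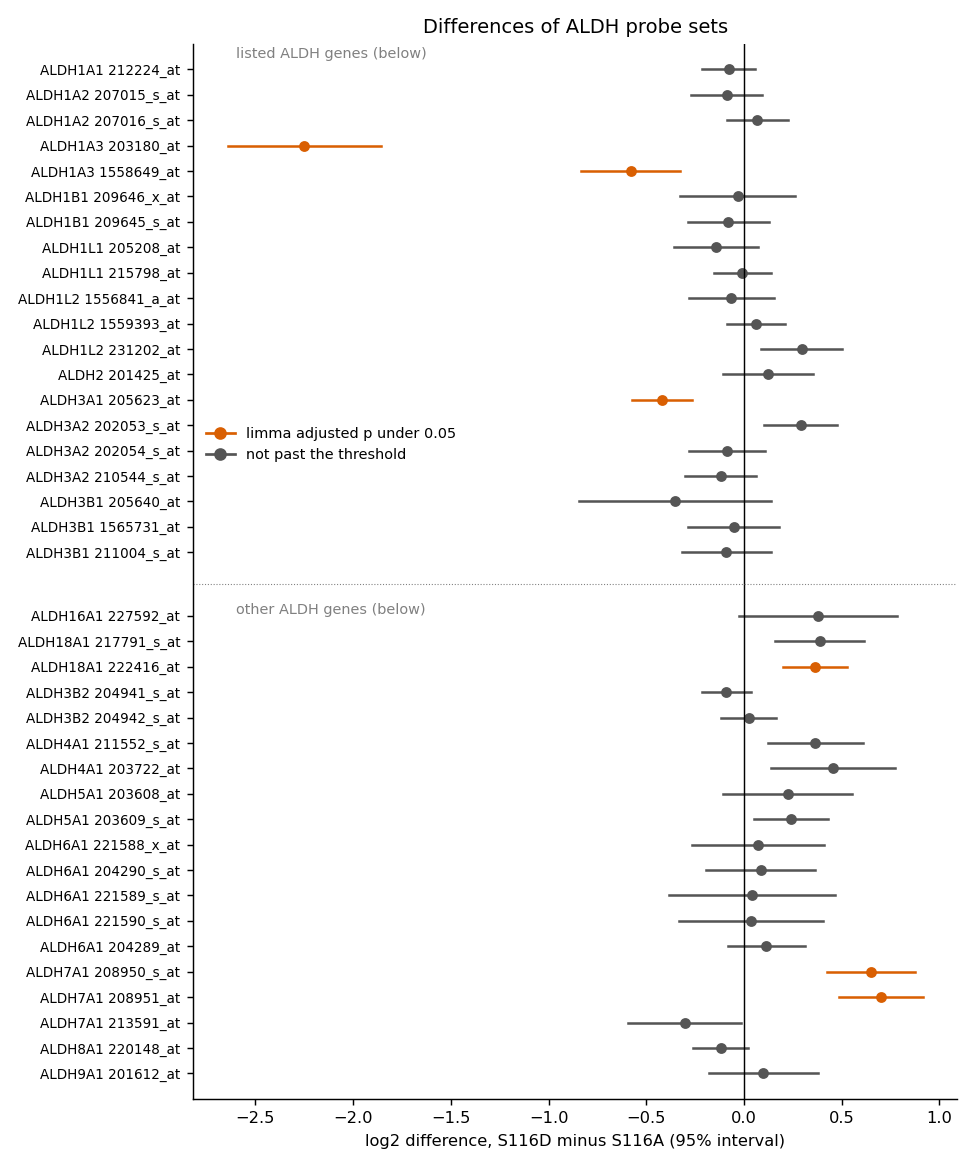
Each row is a probe set, the horizontal axis gives the log2 difference S116D minus S116A, and bars are limma's 95% intervals, with orange for an adjusted p under 0.05; the 10 listed genes stand above the dotted line and the 9 other ALDH genes below it. ALDH1A3 203180_at stands far left at -2.25, and the called probe sets below the line lie right of 0.

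The 9 remaining ALDH genes were represented by 19 probe sets, of which 3 were called higher and 0 lower, against 4.36% higher over the whole array. These 3 belonged to ALDH7A1 and ALDH18A1. On brightest probe sets 1 of the 9 genes was called (11.1%), near the 10.95% of all genes. ALDH7A1, which oxidises an aldehyde of lysine breakdown and betaine aldehyde, read 12.98, 12.75 and 12.78 in S116D, against 12.36, 12.09 and 12.11 in S116A. The lines did not overlap, and the rise was 0.65 ± 0.10 (SE), 1.57-fold (limma adjusted p = 0.0048). A second ALDH7A1 probe set rose by 0.70, and the third, dimmer one differed by -0.30 (limma adjusted p = 0.23). ALDH18A1, which makes the precursor of proline, rose by 0.36 on 1 probe set (limma adjusted p = 0.0160) and differed by 0.39 on the brighter one (0.0502), which passed under 7 of the 13 alternatives run on probe sets. The call on the first ended without S116D 2 (adjusted p = 0.0717) or S116D 3 (0.0708). ALDH4A1, of proline breakdown, differed by 0.37 and 0.45 on its probe sets and did not pass (limma adjusted p = 0.0746 and 0.0917). ALDH5A1 (0.22), ALDH6A1 (0.07), ALDH9A1 (0.10), ALDH16A1 (0.38), ALDH3B2 (-0.09) and ALDH8A1 (-0.12) did not pass on their brightest probe sets. With a block for the 2 array sets, ALDH4A1 (0.43), ALDH5A1 (0.35) and ALDH16A1 (0.54) passed, at limma adjusted p of 0.0067, 0.0031 and 0.0018. That block was drawn from these same values, so these passes are not independent support.

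Genes around the family were grouped by role in 6 lists, each gene on its brightest probe set. Of 89 listed genes 77 were analysed here, and of these 5 were called higher and 5 lower, where 6.13% of all 19775 genes were called higher and 4.82% lower. The retinoid list, which covers uptake, storage, oxidation and reception of vitamin A derivatives, had 20 measured genes, of which 1 rose and 2 fell. DHRS3, a retinaldehyde reductase that works against retinoic acid synthesis, read 9.58, 9.04 and 9.35 in S116D, against 11.24, 10.96 and 10.41 in S116A. The lines did not overlap, and it was 2.93-fold lower (-1.55 ± 0.21, SE, limma adjusted p = 0.0030). RARB, a retinoic acid receptor whose gene is itself a target of retinoic acid, fell by 0.36 (limma adjusted p = 0.0182) on 1 of its 5 probe sets, a call that ended without S116A 1, S116A 2, S116D 2 or S116D 3 (adjusted p 0.0505 to 0.0852). RDH11, a retinol dehydrogenase, rose by 0.67 on its brightest probe set (limma adjusted p = 0.0011), and 2 of its 4 probe sets were called.

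The other retinoid genes did not pass on their brightest probe sets. RDH10, which makes retinaldehyde from retinol, differed by -0.05, the retinoic acid carrier CRABP2 by -0.17 and the receptor RARA by 0.26, at limma adjusted p of 0.83, 0.23 and 0.0731. Another of the 5 RARA probe sets, below the lower quartile, was called the other way (-0.20, limma adjusted p = 0.0386). CYP26B1, a relative of CYP26A1, differed by -0.08 on the brightest of its 2 probe sets and was lower by -0.45 on the dimmer one (limma adjusted p = 0.0148). CYP26A1, which breaks down retinoic acid and is induced by it, differed by -0.26 (limma adjusted p = 0.12), and passed without S116A 3 (-0.35, adjusted p = 0.0338) and with array weights (-0.30, 0.0413). The transglutaminase TGM2, another gene induced by retinoic acid, read 11.35, 10.01 and 9.98 in S116D, against 9.38, 9.35 and 9.03 in S116A. Its difference of 1.19 did not pass (limma adjusted p = 0.0635). It passed without S116D 1 (0.74, adjusted p = 0.0090) and with a block for the 2 array sets (1.47, 4.6e-04). CYP26A1, CYP26B1 and TGM2 were named after their values were seen. The retinoid genes had a median difference of -0.05, and all genes one of 0.01.

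A list of fatty aldehyde, fatty alcohol and peroxisomal lipid enzymes was drawn up around the substrates of ALDH3A2, with earlier results of these data known. Its count is therefore not read as a result about these enzymes. On their brightest probe sets 4 of 8 measured genes were higher and 0 lower, against 6.13% and 4.82% of all genes. Of these 4, HACL1 forms a fatty aldehyde and FAR2 makes fatty alcohols, while PHYH and HSD17B4 act on acyl-CoA esters. PHYH, which starts peroxisomal alpha-oxidation of branched fatty acids, read 11.96, 11.88 and 11.93 in S116D, against 10.90, 10.80 and 10.72 in S116A. The lines did not overlap, and PHYH rose 2.17-fold (1.12 ± 0.08, SE, limma adjusted p = 1.1e-04). HACL1, the lyase that releases a fatty aldehyde in the same pathway, rose by 0.63 (limma adjusted p = 0.0169), a call that ended without S116A 1, S116A 2, S116D 2 or S116D 3 (adjusted p 0.0532 to 0.0756). HSD17B4, of peroxisomal beta-oxidation, rose by 0.87, on 1 of its 2 probe sets. FAR2, a reductase that makes fatty alcohols, rose by 1.02, on 2 of its 3. On dimmer probe sets, FAR1, a second fatty alcohol reductase, was lower by -0.58 (limma adjusted p = 0.0043) and SGPL1, which releases a fatty aldehyde from sphingosine phosphate, higher by 0.35 (0.0238), both on 1 of 3 probe sets and named after their values were seen. The 8 genes had a median difference of 0.43.

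Alcohol dehydrogenases, aldo-keto and carbonyl reductases gave 0 calls by limma among 18 measured genes on their brightest probe sets. Of the 18, 6 had an unadjusted p under 0.05, as had 4667 of all 19775 genes. AOX1, an aldehyde oxidase, was lower on the dimmer of its 2 probe sets, which lay below the array median (-0.96, limma adjusted p = 0.0055), and differed by -0.09 on the brighter one. The aldo-keto reductases AKR1C1, AKR1C2 and AKR1C3, which share much of their sequence and may share probes, differed by 0.67, 0.71 and 0.83, at limma adjusted p of 0.28, 0.24 and 0.0973. Without S116D 1, AKR1C2 passed at 1.01 (adjusted p = 0.0476); AOX1 and these 3 were named after their values were seen. Of 11 folate enzymes 1 was called lower, MTHFD2L, a mitochondrial dehydrogenase, by -0.40 (limma adjusted p = 0.0181) on 1 of its 8 probe sets, and this call ended without S116A 1, S116A 2, S116D 2 or S116D 3 (adjusted p 0.0659 to 0.0814). SHMT2, which feeds one-carbon units into mitochondrial folate, was lower on 1 dimmer probe set (-0.32, limma adjusted p = 0.0499) and was named after its value was seen.

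Among 11 genes for AHR, NRF2, CEBPB and their textbook partners and targets, limma called 0 on the brightest probe sets, and 1 had an unadjusted p under 0.05. GCLM, a subunit of the enzyme that starts glutathione synthesis and an NRF2 target, was lower on 2 of its 3 probe sets (-0.42 and -0.49, limma adjusted p = 0.0162 and 0.0148) and differed by -0.08 on the brightest. AHR, the receptor that induces ALDH3A1 in rat liver, differed by -0.28 (limma adjusted p = 0.20) and NQO1, a target of both AHR and NRF2, by 0.07 (0.75). CYP1A1, the classical AHR target, differed by 0.11 (0.78), and by 0.29 without S116D 1 (0.0383); GCLM and CYP1A1 were named after their values were seen. Of 9 measured markers used beside ALDH activity for tumour-initiating cells, 2 were lower and 0 higher, against 4.82% and 6.13% of all genes. They were EPCAM (-0.90, limma adjusted p = 0.0167) and CD44 (-0.50 on 1 of its 13 probe sets, 0.0031). The call of EPCAM ended without S116A 1, S116A 2, S116D 2 or S116D 3 (adjusted p 0.0624 to 0.0743). On dimmer probe sets, CD24 was higher on 2 of 6 (0.67 and 0.71, limma adjusted p = 0.0079 and 0.0024) and ALCAM lower on 1 of 3 (-0.35, 0.0311), both surface glycoproteins named after their values were seen. EPCAM also stands in the epithelial list above. KIT, a receptor tyrosine kinase, differed by 0.77 (limma adjusted p = 0.12). It passed without S116A 3 (1.01, adjusted p = 0.0354), with array weights (0.95, 0.0315) and with a block for the 2 array sets (0.55, 0.0268), and it too was named after its value was seen.

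**Figure D3:**
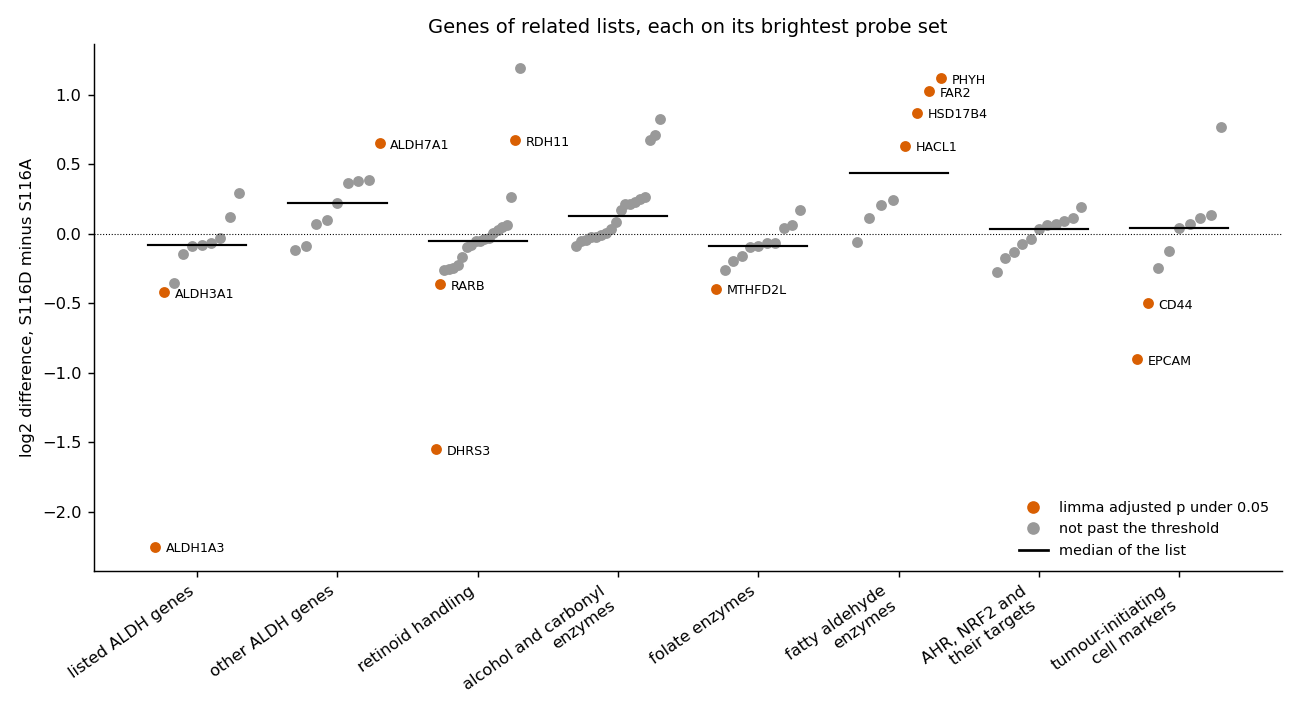
Each point is a gene on its brightest probe set, the vertical axis gives the log2 difference S116D minus S116A, columns are the gene lists, black lines are list medians and orange marks an adjusted p under 0.05. ALDH1A3 (-2.25) and DHRS3 (-1.55) are the lowest points, and 4 of 8 genes of the fatty aldehyde and lipid enzyme list lie above 0.5 in orange. The lists were drawn up with earlier results of these data known.

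Markers of other cell types were read beside these results. Leukocyte markers gave 0 calls of 4 by limma and 0 at an unadjusted p under 0.05, with a mean log2 signal of 7.17 to 7.25 in S116D and 7.12 to 7.26 in S116A. Fibroblast markers gave 0 calls of 6 and 1 at an unadjusted p under 0.05, at 8.04 to 8.11 in S116D and 8.12 to 8.13 in S116A. Of 4 endothelial markers KDR was lower (-0.43, limma adjusted p = 0.0036), at a signal under every array's lower quartile. In the epithelial list 5 of 10 markers were lower in S116D, against 4.82% of all genes on their brightest probe sets. The calls of KRT8 and EPCAM among them ended without single arrays, as given above. The most negative differences were at KRT19 (-2.26) and KRT7 (-1.56), while ERBB2 (0.39), PAX8 (0.05) and WT1 (-0.07) did not pass. The list's mean log2 signal was 10.90 to 11.23 in S116D and 11.44 to 11.71 in S116A. The part of these markers in the ALDH1A3 difference was not tested.

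Genes with the profile most like that of ALDH1A3 203180_at were taken by Euclidean distance between mean-centred log2 values over the 6 arrays. The 5 nearest of the other genes were ITGA6, LHFPL6, CCBE1, TRHDE and CALHM3, at distances of 0.44 to 0.66. ITGA6, the integrin α6 subunit, averaged 9.55 ± 0.26 in S116D and 11.92 ± 0.06 in S116A (SD, n = 3 each), and was 5.18-fold lower. The differences of the other 4 lay between -2.43 and -1.86. With 6 arrays in 2 lines, this likeness reflects mainly the size of the difference between lines.

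Genes next to the 2 called members on their chromosomes were read in the order of the RefSeq table, a choice made after the values were seen. Of the 3 nearest measured genes on each side of ALDH1A3 on chromosome 15, limma called 0 of 6, with 1 at an unadjusted p under 0.05, and differences ran from -0.34 (ASB7) to 0.09 (LRRK1). Around ALDH3A1 on chromosome 17, where ALDH3A2 is among the neighbours, limma called 0 of 6, and differences ran from -0.14 to 0.33. At an unadjusted p under 0.05 were 4 of these, SLC47A1, ALDH3A2, SLC47A2 and ULK2, all higher in S116D, unlike ALDH3A1. Among all 19775 genes on their brightest probe sets, 4667 had an unadjusted p under 0.05. ALDH3A1 and ALDH3A2 thus stand close together, with differences of -0.42 and, on the brightest probe set, 0.29.

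**Figure D4:**
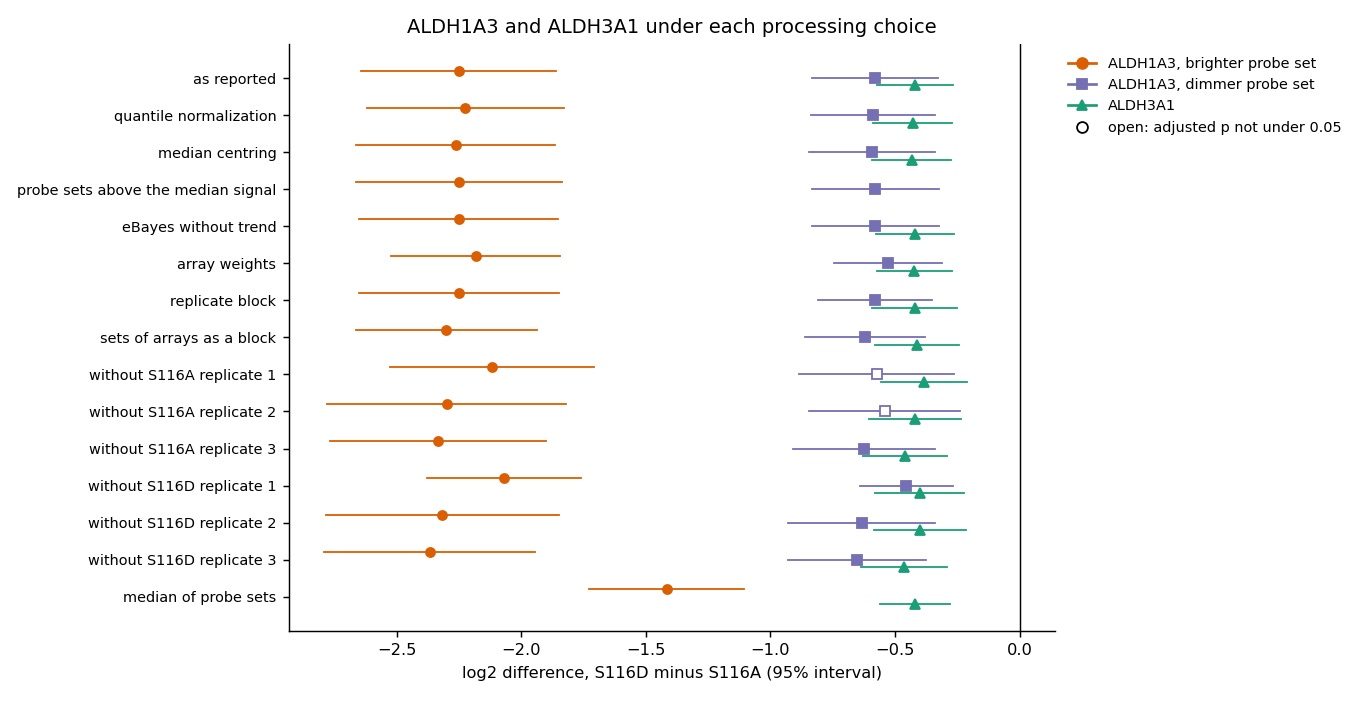
Rows are processing choices, the horizontal axis gives the log2 difference S116D minus S116A with limma's 95% interval, and open markers did not pass an adjusted p of 0.05. The brighter ALDH1A3 probe set stays between -2.37 and -2.07 in every row but the last, where the median of both probe sets gives -1.42, and ALDH3A1 stays near -0.42.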

How the data were processed

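Total RNA of 6 samples was labelled with biotin and hybridised to the arrays, as the labels' protocols describe for extraction and labelling. The authors deposited 1 log2 signal per probe set and array, taken as log2 because all values lay between 4.34 and 15.33 with nearly equal quartiles. MAS5 and RMA appear in the submitters' processing notes without role or version, and no detection calls were given. The number of arrays, 3 per line, limits the precision.

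Of 54675 probe sets, 62 controls were left out. GEO's platform annotation, with symbols updated through RefSeq (GRCh38.p14), assigned 41091 probe sets to 1 gene and 1801 to several, while 11721 are unnamed here. All 54613 were fitted with limma 3.58.1 in R 4.3.3 (lmFit, eBayes with intensity trend, no covariate), S116D minus S116A, with Benjamini-Hochberg adjustment over all of them. A gene's brightest probe set has the highest mean over 6 arrays. In simulated data with the spread of these 54613 probe sets, drawn independently of each other, 200 probe sets were shifted. Log2 changes of 0.5 were recovered in 56.7%, changes of 1 in 91.0% and changes of 2 in 100%, and 4.07% of calls were false. The real values gave far more calls and share variation across probe sets. These figures therefore need not hold for the calls reported here.

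Members and lists were chosen with earlier results of these data known. Named genes were all 19 ALDH genes, called list genes (at most 4 per list, by smallest adjusted p), RDH10, CRABP2, RARA, NQO1, AHR, CD44 and the 5 nearest profiles; others are marked. Same-numbered arrays of the lines correlated at 0.45, -0.04 and 0.44 in their deviations from the line means. Differently numbered arrays correlated at -0.55 to 0.31, so these values do not settle whether the numbers mark pairs. The labels name no pairing, and the main fit took none. Values were taken as log2, so no pseudocounts were run.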

Additional observations from a re-analysis of the deposited data

How the results depend on the processing

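Under the 13 alternatives run on probe sets, 2 to 4 of the 20 probe sets of the 10 genes were called, against 3 as reported. With the replicate number as a block (replicate block), 7340 probe sets were called over the array and 21 genes of the 6 lists and the 9 other ALDH genes, against 4672 and 11 without it; blocking on the 2 array sets gave 8099 and 22. In the labels, same-numbered arrays share only a number, and the 2 array sets come from the second principal component of these same values. With the replicate block ALDH3A2 was called (adjusted p = 0.0241), as were TGM2, KIT, AKR1C1, AKR1C2 and AKR1C3. Among probe sets above the median signal, 1 of the 10 genes was called in place of 2, since ALDH3A1 was not among the probe sets tested. Leaving out 1 array gave 2608 to 4674 called probe sets and 7 to 16 of these listed genes. The probe sets numbered 2608 to 2986 without S116A 1, S116A 2, S116D 2 or S116D 3, and the listed genes 7 without S116A 2, S116D 2 or S116D 3. ALDH1B1 changed sign without S116A 1 (0.11; range over arrays left out -0.16 to 0.11) and ALDH1L2 without S116A 3 (0.047; range -0.15 to 0.047), and on the median of their probe sets ALDH1L2 gave 0.061 and ALDH3A2 -0.087; none of these was called. The cause was not tested. Levels near or below the lower quartile, as for ALDH1A1 and ALDH1L2, may not show a change well on these arrays, which was not tested. KDR and a RARA probe set were called at such levels. The pseudocount alternatives were not run.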
